A study of Homo sapiens with 6 samples.

Results

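The mRNAs of insulin-like growth factor (IGF) and insulin signalling were examined in MDA-MB-453, an established human breast cancer cell line, after culture with 25-hydroxyvitamin D (25(OH)D), the main form of vitamin D in blood. The 10 genes were taken from the deposited table by symbol, out of 33451 genes listed. They are the binding proteins IGFBP2, IGFBP3, IGFBP4, IGFBP5 and IGFBP6, the receptors IGF1R, IGF2R and INSR, and the receptor substrates IRS1 and IRS2. The experimental group (EG) was cultured in 100 nM 25(OH)D and the control group (CG) in its alcohol solvent, both for 5 days in DMEM with serum and antibiotics, and 3 mRNA libraries were sequenced per group. Both groups are the same cell line, the study calls the libraries biological replicates, and nothing more was stated on whether they came from separate cultures. In bulk RNA, a lower level in every cell and fewer cells that express a gene cannot be told apart.

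IGF1 and IGF2 act through IGF1R, a receptor tyrosine kinase, and insulin acts through the related INSR. IGF2R removes IGF2 from the cell surface and also carries lysosomal enzymes tagged with mannose 6-phosphate. The secreted IGF binding proteins hold the ligands away from the receptors or deliver them there, and proteases release the ligand by cutting them. Inside the cell, the active receptors phosphorylate IRS1 and IRS2, which recruit PI3K and so feed the AKT and mTOR kinases, while AKT keeps FOXO transcription factors out of the nucleus.

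The libraries held between 33268860 and 40928176 counts. Replicates were not duplicates of each other, with a chi-square per gene between 4.01 and 12.1 for every pair within a group. All 9 epithelial and luminal markers were present, at a summed level between 4441 and 4659 CPM (counts scaled to the library total after TMM adjustment) across the 6 libraries. Of these, 5 rose and 3 fell (KRT19, GATA3 and FOXA1, with log2 fold changes of -0.41, -0.80 and -0.46). The 5 fibroblast markers analysed summed to between 36.5 and 39.0 CPM in CG and between 32.0 and 34.7 CPM in EG, nearly all of it COL1A1, and the rest had at most 20 counts in every library. The 5 leukocyte markers summed to between 4.47 and 6.05 CPM in CG and between 13.3 and 19.5 CPM in EG, and CD68 alone was above 20 counts, with a mean of 4.93 CPM in CG and 15.9 CPM in EG. The 2 endothelial and 2 adipocyte markers analysed had at most 20 counts in every library. The part of these differences in the results that follow was not tested. VDR, the vitamin D receptor, rose from 80.8 ± 0.739 to 133 ± 6.16 CPM (mean ± SD, n = 3), a log2 fold change of 0.72 (adjusted p = 1.94e-08).

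In EG, 2 of the 10 genes were higher and 4 were lower than in CG, 2 did not pass the test and 2 had too few reads to be tested. Among the binding proteins, IGFBP5 and IGFBP4 fell while IGFBP2 rose. Among the receptors, IGF1R fell and IGF2R rose slightly, and the substrate IRS1 fell. Calls are those of the quasi-likelihood test of edgeR over 18183 genes, at an adjusted p (Benjamini-Hochberg) below 0.05. In that test 17.3% of the genes tested were higher and 16.5% were lower. This is the background to the 2 and 4 calls among the 8 of the 10 genes that were tested. At the limits drawn in the volcano plot of the study, an absolute log2 fold change over 1 with an unadjusted p under 0.05, IGFBP4 and IGFBP5 were lower and none of the 10 was higher. In the test run here, those limits were met by 2.63% of all genes tested on the lower side and by 4.02% on the higher side. The library values of the groups did not overlap for 6 of the 8 genes tested, and for 45.7% of all genes tested.

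**Figure D1:**
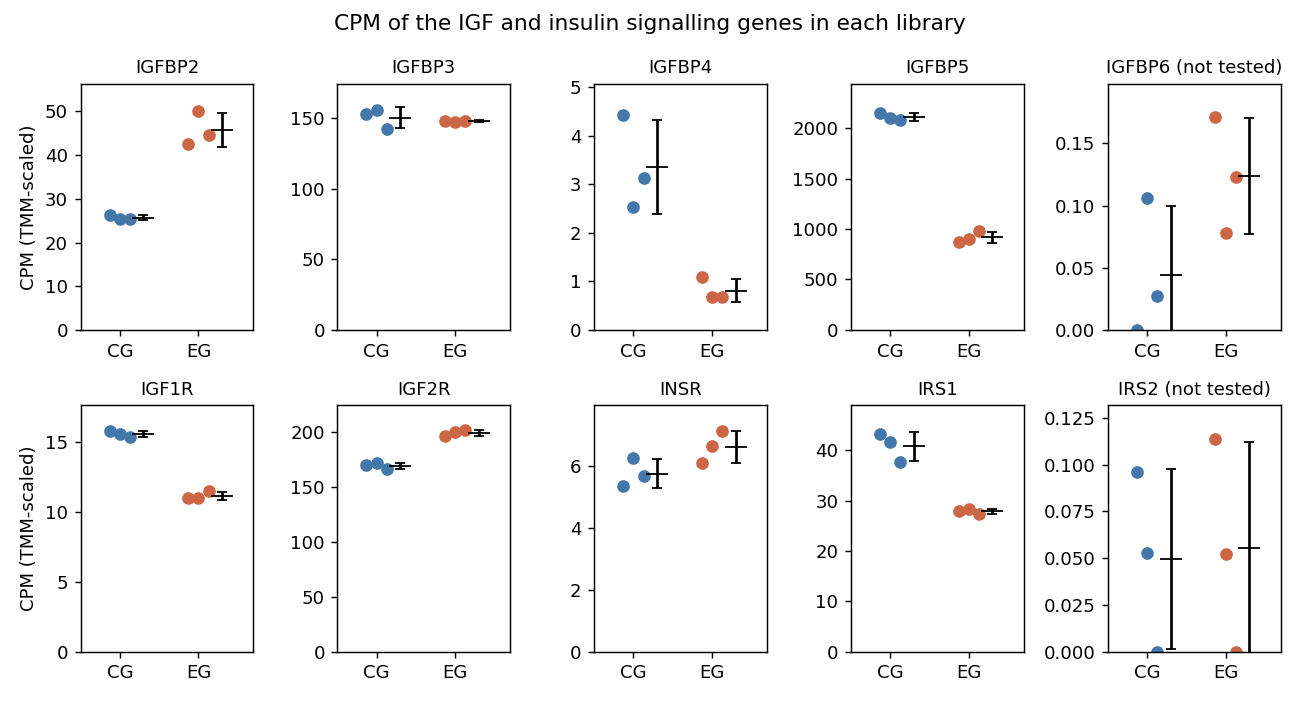
Each point is the CPM of 1 library, for 3 CG and 3 EG libraries per gene, on linear axes that start at 0, and the bar beside the points gives the mean and SD. IGFBP4, IGFBP5, IGF1R and IRS1 are lower in every EG library, IGFBP2 and IGF2R are higher, IGFBP3 and INSR overlap, and IGFBP6 and IRS2 lie near 0, where the SD bars are cut at the axis.

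The upstream sequences of the 4 binding protein genes with testable counts are shown because their mRNAs differed in direction, with 1 higher, 2 lower and 1 not called. Each is the stretch of 250 bases before a RefSeq transcript start on GRCh38.p14, read in the direction of transcription. They lie at chr2:216633170-216633419 for IGFBP2 (plus strand), chr7:45921273-45921522 for IGFBP3 (minus strand), chr17:40443200-40443449 for IGFBP4 (plus strand) and chr2:216695550-216695799 for IGFBP5 (minus strand). Capitals mark matches, on either strand, to motifs that were searched by their letters. The TATA box was searched as TATAAA and the GC box, which Sp1 binds, as GGGCGG. The E-box was searched as CACGTG and the site of FOXO factors as TGTTTAC. The nuclear receptor half-site was searched as AGGTCA and in a form that starts with G instead, GGGTCA. A further pair of half-sites with a different centre was AGTTCA, and with the other start it was GGTTCA.
IGFBP2: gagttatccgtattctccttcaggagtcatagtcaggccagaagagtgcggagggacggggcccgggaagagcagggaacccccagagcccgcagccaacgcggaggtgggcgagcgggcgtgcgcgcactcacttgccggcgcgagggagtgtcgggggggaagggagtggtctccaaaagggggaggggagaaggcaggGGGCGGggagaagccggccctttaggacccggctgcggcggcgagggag
IGFBP3: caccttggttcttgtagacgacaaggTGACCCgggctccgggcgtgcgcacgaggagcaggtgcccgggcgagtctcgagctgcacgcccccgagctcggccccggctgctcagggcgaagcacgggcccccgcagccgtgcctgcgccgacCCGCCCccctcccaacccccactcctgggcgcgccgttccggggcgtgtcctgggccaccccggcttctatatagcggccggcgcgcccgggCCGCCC
IGFBP4: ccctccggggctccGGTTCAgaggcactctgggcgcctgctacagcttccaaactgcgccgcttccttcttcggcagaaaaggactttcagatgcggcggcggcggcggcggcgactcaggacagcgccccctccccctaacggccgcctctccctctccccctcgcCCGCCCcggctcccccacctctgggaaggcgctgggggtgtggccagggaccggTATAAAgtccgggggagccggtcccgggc
IGFBP5: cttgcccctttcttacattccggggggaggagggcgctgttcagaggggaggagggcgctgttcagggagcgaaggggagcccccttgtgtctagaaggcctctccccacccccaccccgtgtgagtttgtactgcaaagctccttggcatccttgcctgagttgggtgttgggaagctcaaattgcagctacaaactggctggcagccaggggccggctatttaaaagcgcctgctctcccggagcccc

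Of these 4, IGFBP4 was the gene with a TATAAA match, 29 bases before its start (position -29), and 11.5% of the 35116 promoter windows in the RefSeq table hold that motif. IGFBP2 held a GC box at -49, IGFBP3 held GC boxes at -98 and -6, and IGFBP4 held them at -83 and at 25 bases past its start, beyond the stretch printed. A GC box was found in 45% of all windows, which reach from 250 bases before the start to 50 bases after it. A nuclear receptor half-site, the type of element the vitamin D receptor binds in pairs, was found in IGFBP3 at -224 and in IGFBP4 at -236, against 38.6% of all windows. The IGFBP5 window held none of the motifs and had a GC content of 59%, beside a median of 58.7% over all windows (quartiles 47 and 68). Among the receptor and substrate genes the GC content reached from 75.7% in IRS2 to 79.7% in IGF1R. IGF2R held 6 GC boxes and 3 E-boxes, at -132, -74 and -28, and the E-box at -132 overlaps the half-site at -128. A further half-site lay at -95 in IGF2R. IRS1 also held an E-box, at 36 bases past its start, and IRS2 held a half-site at -25. GC boxes were also found in the windows of IGF1R, INSR, IRS1 and IRS2. An E-box was found in 7.26% of all windows. A FOXO match was found in the window of IGFBP6 and of no other of the 10 genes, and in 3.42% of all windows. All 10 genes had a window, and for IGFBP2, which has 3 listed starts, the start nearest to the principal transcript of GENCODE 29 was used. The starts used for IGFBP6 and INSR lie 222 and 380 bases from that of the principal transcript. Their windows may miss matches near the principal start.

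IGFBP5 was the most abundant of the 10 mRNAs and carried the largest change in reads. It binds IGFs and the extracellular matrix and is a known secreted product of mammary epithelium. The gene lies on chromosome 2, from 216672105 to 216695525 on the minus strand of GRCh38. Its level was 2154, 2095 and 2081 CPM in the CG libraries and 871, 903 and 976 CPM in the EG libraries. Every EG library was far below every CG library. The mean fell from 2110 ± 38.9 to 917 ± 53.7 CPM (mean ± SD, n = 3), a ratio of 0.434, or -1.20 on the log2 scale (SE 0.0407, 95% interval -1.29 to -1.12, adjusted p = 1.93e-11). By level per length, IGFBP5 ranked 109 among all 33451 genes in CG and 290 in EG. It took between 0.210% and 0.219% of all counts in the CG libraries and between 0.0854% and 0.0956% in the EG libraries. A gene on the opposite strand, AC007563.5, shares 298 exon bases with IGFBP5, which is 4.63% of the length of IGFBP5. It had 38919 counts over the CG libraries and 15084 over the EG libraries, with a log2 fold change of -1.23. Whether the counting used the strand is not given in the sources used here, so reads from the shared stretch cannot be told apart.

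IGFBP4, which binds IGFs and is cut by the protease PAPP-A, fell further in fold but from a low level. It lies on chromosome 17, from 40443461 to 40457731 on the plus strand. The CG libraries held 184, 96 and 115 counts and the EG libraries held 38, 26 and 22. The CG values were spread over 2.54 to 4.42 CPM, the EG values over 0.675 to 1.08 CPM, and the groups did not overlap. The mean fell, from 3.36 ± 0.962 to 0.811 ± 0.234 CPM (mean ± SD, n = 3), or -2.05 on the log2 scale (SE 0.271, 95% interval -2.63 to -1.47, adjusted p = 3.78e-05). On the log2(RPKM + 1) scale, which understates changes of low genes, its fold change was -0.89.

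IGFBP2, the neighbour of IGFBP5 on the chromosome, moved in the opposite direction. IGFBP2 encodes a binding protein with a preference for IGF2 and lies on chromosome 2, from 216632828 to 216664436 on the plus strand. The genes end towards each other with a gap of 7668 bases, and no gene of the table lies wholly in the gap. IGFBP2 had 26.3, 25.4 and 25.4 CPM in the CG libraries and 42.6, 50.0 and 44.5 CPM in the EG libraries. All EG libraries were above all CG libraries, with EG replicate 2 the highest. The mean rose from 25.7 ± 0.488 to 45.7 ± 3.85 CPM (mean ± SD, n = 3), a ratio of 1.78, or 0.83 on the log2 scale (SE 0.0683, 95% interval 0.68 to 0.98, adjusted p = 3.28e-07). RPKM, the scale used here to compare levels of different genes, are read counts scaled by library total and deposited gene length. On it, IGFBP5 was 60.7 ± 0.186 times IGFBP2 in CG and 14.9 ± 1.44 times IGFBP2 in EG (mean ± SD, n = 3). The deposited length was 4767 bases for IGFBP2 and 6442 bases for IGFBP5. Whether the transcripts present have these lengths was not tested, and ratios, shares and orders between genes rest on deposited lengths.

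IGFBP3, the main carrier of IGFs in blood and a gene known to respond to vitamin D in other cells, did not pass the test. It lies on chromosome 7, from 45912245 to 45921874 on the minus strand. Its level was 153, 156 and 142 CPM in CG and 148, 147 and 148 CPM in EG. The EG values lay inside the range of the CG values. The log2 fold change was -0.027 with a 95% interval of -0.12 to 0.067 (adjusted p = 0.678), so a change as large as those of the other testable binding proteins lies outside the interval. IGFBP6 had 0, 4 and 1 counts in CG and 6, 3 and 4 counts in EG. These counts are too few for a fold change, and without the filter on low counts its adjusted p was 0.528.

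As a pool on the RPKM scale, the binding protein mRNAs summed to 382, 372 and 364 in the CG libraries and to 174, 182 and 190 in the EG libraries. The mean sum in EG was 0.487 of that in CG. Without IGFBP5 the sum was 40.5 ± 1.94 RPKM in CG and 41.7 ± 0.855 RPKM in EG (mean ± SD, n = 3). The share of IGFBP5 in the pool was 89.1% ± 0.326 in CG and 77.0% ± 1.03 in EG. The share of IGFBP3 was 8.96% ± 0.363 in CG and 17.5% ± 0.752 in EG, although its own level did not pass the test. IGFBP2 made up 1.47% ± 0.00962 in CG and 5.20% ± 0.470 in EG (mean ± SD, n = 3). IGFBP4 made up at most 0.535% of the pool in any library.

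**Figure D2:**
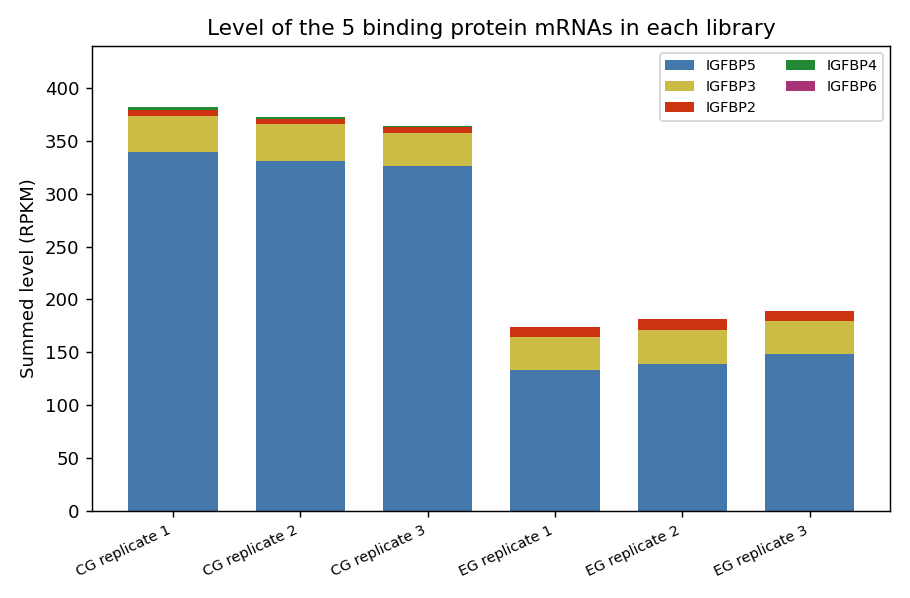
Stacked bars give the RPKM of the 5 binding protein mRNAs in each library, from 0, with 1 bar per library. The bars of the EG libraries reach 174 to 190 RPKM against 364 to 382 RPKM in CG, and the IGFBP5 segment accounts for the difference while the IGFBP2 segment is taller in EG.

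IGF1R, the receptor through which both IGFs signal, lies on chromosome 15, from 98648971 to 98964530 on the plus strand. Its level was 15.8, 15.6 and 15.4 CPM in CG and 11.0, 11.0 and 11.5 CPM in EG. The groups were well apart and the spread within each was small. The mean fell from 15.6 ± 0.165 to 11.2 ± 0.290 CPM (mean ± SD, n = 3), or -0.48 on the log2 scale (SE 0.0793, 95% interval -0.65 to -0.31, adjusted p = 2.71e-04). IGF2R, on chromosome 6 from 159969099 to 160113507 on the plus strand, moved the other way. It had 170, 171 and 166 CPM in CG and 196, 200 and 201 CPM in EG, without overlap. The rise was small, from 169 ± 2.79 to 199 ± 2.50 CPM (mean ± SD, n = 3), or 0.23 on the log2 scale (SE 0.0376, 95% interval 0.15 to 0.31, adjusted p = 2.44e-04). On the RPKM scale, IGF2R was 9.83 ± 0.0980 times IGF1R in CG and 16.1 ± 0.329 times IGF1R in EG (mean ± SD, n = 3).

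INSR, the insulin receptor, lies on chromosome 19 from 7112255 to 7294034 on the minus strand. Its level was 5.33, 6.24 and 5.65 CPM in CG and 6.09, 6.63 and 7.12 CPM in EG. The groups overlapped, and the log2 fold change of 0.20 did not pass the test (95% interval -0.057 to 0.47, adjusted p = 0.224). IGF1R was 2.11 ± 0.174 times INSR in CG and 1.31 ± 0.0780 times INSR in EG on the RPKM scale (mean ± SD, n = 3), and the library ratios of the groups did not overlap.

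IRS1, the docking protein that links both receptors to PI3K, lies on chromosome 2 from 226731317 to 226799759 on the minus strand. It had 43.2, 41.6 and 37.6 CPM in CG and 27.9, 28.3 and 27.4 CPM in EG. CG replicate 3 was the lowest of its group and was still above every EG library. The mean fell from 40.8 ± 2.89 to 27.9 ± 0.473 CPM (mean ± SD, n = 3), or -0.55 on the log2 scale (SE 0.0654, 95% interval -0.69 to -0.41, adjusted p = 1.41e-05). IRS2, its close relative, had 4, 2 and 0 counts in CG and the same 3 counts in EG, so IRS1 was the testable substrate of the pair. IRS4, a further member of the family, was also present, with 221, 245 and 196 counts in CG and 93, 109 and 87 counts in EG. It fell by 1.07 on the log2 scale (SE 0.147, adjusted p = 5.38e-05). IRS4 shares 356 exon bases with an opposite-strand gene, RP6-24A23.3, which had a log2 fold change of -1.31, and 109 bases with the same-strand gene RP6-24A23.6, which was not tested.

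On the RPKM scale the order of the 10 genes in CG began with IGFBP5 at 332 ± 7.24, followed by IGFBP3 at 33.4 ± 1.78, IGF2R at 11.5 ± 0.242, IGFBP2 at 5.47 ± 0.119 and IRS1 at 4.16 ± 0.312 (mean ± SD, n = 3). IGFBP4 at 1.55 ± 0.447 and IGF1R at 1.17 ± 0.0175 came next and overlapped each other, and INSR followed at 0.557 ± 0.0453. In EG the first 5 genes kept this order, and IGFBP4, at 0.362 ± 0.104, stood below INSR at 0.623 ± 0.0482. IGFBP6 and IRS2 were last in both groups, with overlapping values in CG.

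**Figure D3:**
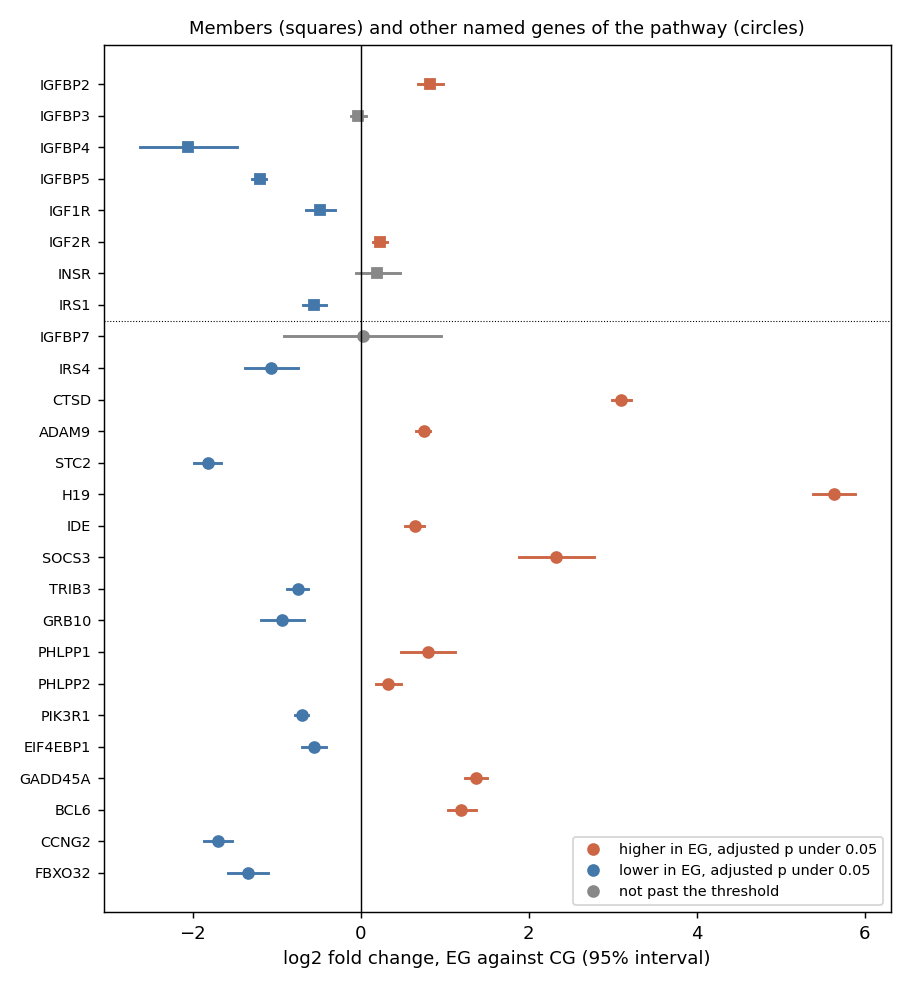
Squares are the 8 testable genes of the 10 and circles the other named genes of the pathway, each with its log2 fold change of EG against CG and the 95% interval. IGFBP4, IGFBP5, IGF1R and IRS1 lie left of 0, IGFBP2 and IGF2R lie right of it, and H19 at 5.63 and CTSD at 3.10 are the furthest of the other genes.

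The ligands themselves were near the limit of detection. IGF1 had 3, 0 and 2 counts in CG and none in EG, and IGF2 had 0, 4 and 4 counts in CG and 2, 12 and 0 in EG. A count of 3, taken as the floor, equals between 0.0720 and 0.0921 CPM. IGFBP1, IGFALS, which encodes the third partner of the circulating IGF complex, and INSRR, an orphan relative of INSR, had at most 9 counts in any library. IGFBP7, a related protein with weak binding to IGFs, had between 16 and 42 counts and a log2 fold change of 0.025 (adjusted p = 0.973). INS was not among the 33451 genes listed.

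Among genes that cut the binding proteins or hold those proteases back, CTSD and ADAM9 rose and STC2 fell. Of 10 such genes, 4 were tested, of which 2 were higher, 1 was lower and 1 did not pass. Over all genes tested, 17.3% were higher and 16.5% were lower. CTSD encodes cathepsin D, a lysosomal protease that can degrade IGFBP3 and travels on the receptor encoded by IGF2R. It rose from 34.7 ± 2.42 to 299 ± 6.62 CPM (mean ± SD, n = 3), or 3.10 on the log2 scale (SE 0.0530, adjusted p = 1.44e-14). CTSD shares 1304 of its exon bases with RP11-295K3.1 on the same strand, which had a log2 fold change of 3.13. ADAM9, a membrane metalloprotease, rose by 0.75 on the log2 scale (SE 0.0390, adjusted p = 2.41e-09). STC2, which encodes the PAPP-A inhibitor stanniocalcin 2, fell from 30.5 ± 1.31 to 8.63 ± 0.0638 CPM (mean ± SD, n = 3), or -1.82 on the log2 scale (SE 0.0738, adjusted p = 1.40e-10). Its relative STC1 had a log2 fold change of 0.013 (adjusted p = 0.937). PAPPA, which encodes the protease that STC2 holds back, had at most 10 counts in any library and was not tested.

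The imprinted noncoding RNA H19, whose gene neighbours IGF2 on chromosome 11, had the largest log2 fold change of the genes in these lists. It had 28, 25 and 34 counts in CG and 1314, 1378 and 1258 counts in EG. The mean rose from 0.752 ± 0.148 to 37.3 ± 1.39 CPM (mean ± SD, n = 3), or 5.63 on the log2 scale (SE 0.115, adjusted p = 9.95e-14). The spans of H19 and IGF2 are 127641 bases apart, and IGF2 did not exceed 12 counts in any library. The 3 genes of IGF2 mRNA-binding proteins were below the filter, among them IGF2BP1 with 13, 10 and 12 counts in CG and 2, 2 and 0 in EG.

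Among 26 adaptors and antagonists of the receptors, 24 were tested, with 4 of them higher, 5 lower and 15 not called, where 17.3% of all genes were higher and 16.5% lower. The median over the 24 was 0.021 on the log2 scale, beside -0.0113 over all genes tested. SOCS3, a feedback inhibitor that can bind INSR and IRS1, rose from 1.07 ± 0.283 to 5.39 ± 0.677 CPM (mean ± SD, n = 3), or 2.33 on the log2 scale (SE 0.206, adjusted p = 6.67e-07). IDE, the insulin-degrading enzyme, rose with a log2 fold change of 0.65 (adjusted p = 3.51e-07). GRB10, an adaptor that binds IGF1R and INSR and dampens them, fell by 0.93 (adjusted p = 2.85e-05), and the AKT inhibitor TRIB3 fell by 0.75 (adjusted p = 2.43e-07).

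Downstream, all 30 genes of the PI3K, AKT and mTOR list were tested, with 5 of them higher, 5 lower and 20 not called, close to the 17.3% and 16.5% of all genes. Their median log2 fold change was 0.017. PIK3R1, which encodes the regulatory subunit of PI3K that docks on IRS proteins, fell from 297 ± 2.37 to 183 ± 4.95 CPM (mean ± SD, n = 3), or -0.70 on the log2 scale (SE 0.0373, adjusted p = 3.06e-09). EIF4EBP1, the translation repressor that mTOR switches off, fell by 0.55 (adjusted p = 1.83e-05). The AKT phosphatases PHLPP1 and PHLPP2 rose with log2 fold changes of 0.80 and 0.33 (adjusted p = 7.90e-04 and 0.00195). None of these 30 genes met the limits of the volcano plot.

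Genes that FOXO factors are known to induce went both ways. Of 18 such genes, which include INSR and IRS2, 14 were tested, 4 were higher and 5 were lower, beside 17.3% and 16.5% of all genes, with a median log2 fold change of -0.019. GADD45A, a stress-response gene, rose with a log2 fold change of 1.37 (adjusted p = 3.05e-10), and the repressor BCL6 rose by 1.20 on that scale (adjusted p = 2.21e-08). CCNG2, which encodes a cyclin linked to cell cycle exit, fell, at -1.70 on that scale (adjusted p = 4.38e-10), and the ubiquitin ligase gene FBXO32 fell by 1.34 (adjusted p = 4.14e-07). Over the 92 pathway genes outside the 10, 73 were tested, of which 16 were higher, 17 were lower and 40 did not pass, beside 17.3% and 16.5% of all genes, with a median log2 fold change of 0.018. The split moved with the scaling and the test, to 12 higher and 20 lower with library sizes alone or upper-quartile factors and to 11 and 18 with limma on either RPKM scale. The calls over all genes moved the same way, from 3138 higher and 3004 lower to 2689 and 3667 with library sizes alone. They were 2705 and 3613 with upper-quartile factors, and 2391 and 3167 with limma on log2(RPKM + 1).

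**Figure D4:**
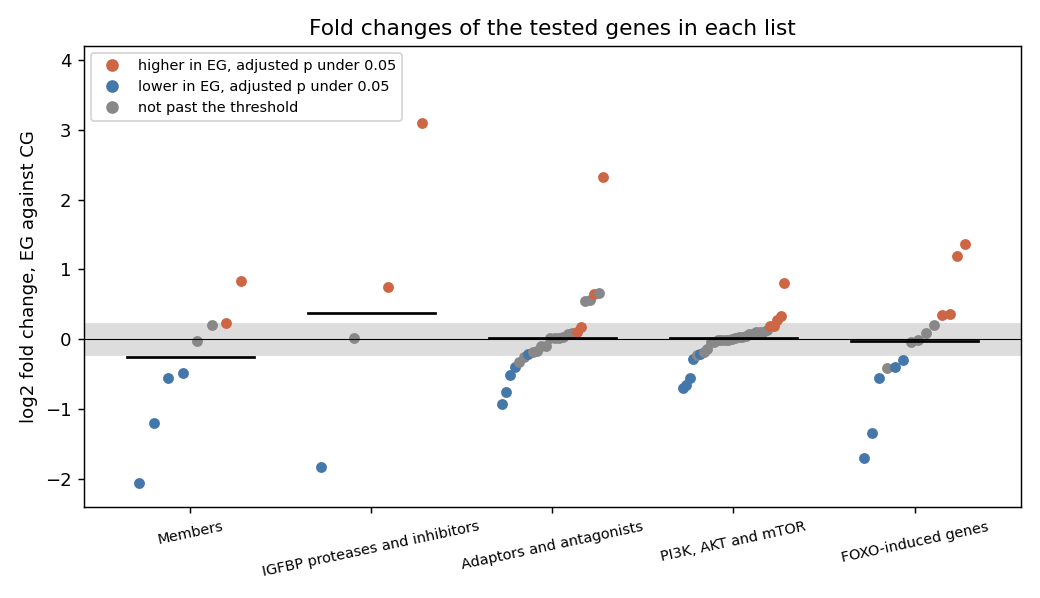
Each point is the log2 fold change of EG against CG of 1 tested gene, the horizontal lines are the medians of the lists, and the grey band spans the quartiles of all genes tested, from -0.23 to 0.22. The medians of the adaptor, PI3K and FOXO lists lie near 0, at 0.021, 0.017 and -0.019, with genes called in both directions in each list.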

How the data were processed

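The 6 libraries were mapped to CG or EG from their sample titles. Per the labels and the study's methods, TRIzol RNA was made into stranded mRNA libraries and sequenced as read pairs. The authors deposited a table of raw read counts per gene and a table of RPKM values, which are counts divided by the gene length and the library total, as checked on every value (largest relative difference 5.14e-15). The submitters' processing notes name GRCh38, Trimmomatic 0.36, featureCounts, Subread 1.5.1 and edgeR 3.12.1. The aligner and the use of the strand are not given in the sources used here. The depth of 33268860 to 40928176 counts limits precision at low counts.

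The count test ran under R 4.3.3 in edgeR 4.0.16 (TMM, filterByExpr with a minimum count of 10, quasi-likelihood test of EG against CG, no covariates), with Benjamini-Hochberg adjustment across all 18183 tested genes. CPM values use TMM-scaled library sizes. Standard errors are the fold change over the square root of the F statistic. The edgeR p-values set the difference between the groups against the spread between these libraries, which is estimated with information shared across genes. Alternatives used DESeq2 1.42.0, limma 3.58.1 on log2(RPKM + 1) and log2(RPKM + 0.1), other scalings, no filter, the replicate number as a block and the omission of each library. Same-numbered libraries did not deviate together (correlations -0.0721 to -0.0120), and the main test did not pair them. These correlations cannot show whether same-numbered libraries were cultured or prepared together, which the labels do not state.

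The genes and lists were chosen with earlier results of these data known. Genes named are the 10, all ligands and partners, in each list the 2 with the smallest p in each direction among those called, VDR, and genes whose exons overlap those named. Further genes were named after their values were seen, namely STC1, PAPPA, IGF2BP1 and the markers given. CYP24A1 was looked up by symbol as well and was not among the 33451 genes listed. Other steps used Python 3.11.15, pandas 2.3.3, numpy 2.4.6 and matplotlib 3.10.9, with promoter sequences from RefSeq (GRCh38.p14).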

Additional observations from a re-analysis of the deposited data

How the results depend on the processing

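The calls and directions of the testable genes among the 10 were the same in 119 of 120 recomputed values, over 15 alternatives each. The exception was IGFBP3, which never passed the test and whose log2 fold change lay between -0.060 and 0.0056 when 1 library was left out, with the value above 0 being that without CG replicate 2. With the limits of the volcano plot in place of the adjusted p, 0 of the 10 genes were higher and 2 lower, against 731 and 478 of all genes. Over all genes, 2689 were higher and 3667 lower with library sizes alone, 2705 and 3613 with upper-quartile factors, 2391 and 3167 with limma on log2(RPKM + 1), and 2408 and 3169 on log2(RPKM + 0.1), against 3138 and 3004. With 1 library left out, the higher genes numbered 2742 to 3031 and the lower ones 2349 to 2666, and the 10 genes gave 2 and 4 calls each time. The log2 fold change lay between -2.31 and -1.79 for IGFBP4, between -1.24 and -1.16 for IGFBP5 and between 0.77 and 0.88 for IGFBP2 in those fits. The share of IGFBP5 in the pool lay between 89.0% and 89.3% in CG and between 76.4% and 77.4% in EG. On the log2(RPKM + 1) scale, low genes had smaller fold changes, as the added 1 makes them, at -0.89 for IGFBP4, 3.46 for H19, 1.07 for SOCS3 and -0.34 for GRB10. PHLPP2 did not pass limma on either RPKM scale, with adjusted p of 0.0570 and 0.0567, where its range over all alternatives was 6.90e-05 to 0.0570. IGFBP7, which never passed, had log2 fold changes of -0.018 with upper-quartile factors, -0.020 with library sizes alone, -0.012 and -0.081 with 1 and 0.1 added to RPKM, -0.046 with the replicate block, -0.0011 with counts divided by 2, and between -0.55 (without EG replicate 3) and 0.34 with 1 library left out, that without CG replicate 1 being -0.19. With the replicate block, 3057 genes were higher and 2896 lower, the 10 genes gave 2 and 4, the pathway genes outside the 10 gave 15 and 17, and no call changed among the genes named by the rule that were refitted (the 8 testable genes, VDR and those shown as circles in the plot of fold changes). Markers, STC1 and overlapping genes were not compared under the block. Without the filter on low counts, IGFBP6 and IRS2 had log2 fold changes of 1.44 and 0.14 (adjusted p = 0.528 and 0.979), and no other fit gave them a value.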

Other observations

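Low counts in the deposited table were more often even than odd. Of the genes with 1 to 20 counts, between 66.0% and 68.0% had an even count in each of the 6 libraries, and above 20 counts between 52.4% and 53.5% did. The cause was not tested. With every count divided by 2 and rounded up, a setting chosen after seeing the data, IGFBP4 had a log2 fold change of -2.06 with a standard error of 0.280, in place of -2.05 and 0.271, and the 10 genes again gave 2 higher and 4 lower calls. The counts of IGFBP4, IGFBP6 and IRS2 are the ones among the 10 that this touches most, since they are the lowest.

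The small entries H19_1 and H19_2, which lie on the strand opposite to H19 and share 71 and 69 bases with it, rose from 5 and 11 counts over the CG libraries to 799 and 1139 over the EG libraries. The opposite-strand gene at CTSD, AC068580.6, shares 493 bases with CTSD and had 562 counts over the CG libraries and 3502 over the EG libraries, a log2 fold change of 2.77.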
